A study of Arabidopsis thaliana with 3 samples.

Results

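The genes described here are the xyloglucan endotransglucosylase/hydrolases (XTH) and the expansins of *Arabidopsis*, which loosen and remodel the primary cell wall. They were chosen by wording: a gene was a member where its description in the deposited table contained "xyloglucan endotransglucosylase", "xyloglucan endotransglycosylase", "xyloglucan:xyloglucosyl" or "expansin". The rule itself uses no measured value, but it was set with earlier results of these data known. The rule found 68 of the 33602 genes in the table. These were 31 XTH genes, 25 alpha expansins, 6 beta expansins, 4 expansin-like genes and 2 pseudogenes, AT2G12660 and AT5G15546. *EXGT-A3*, *XTH31* and *EXP3*, whose descriptions are worded otherwise, were not counted.

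The study overexpressed *SlHsfA3*, a heat stress transcription factor of tomato, in *Arabidopsis* and profiled its effect by RNA-seq. The groups were *SlHsfA3* overexpression (OE) lines #3 and #6 in the Col-0 background, both with the transgene under the constitutive 35S promoter, and Col-0. All plants were unstressed, 4 weeks old and grown at 22°C with 16 h light and 8 h dark, and RNA was taken from the aerial parts. There was 1 library each for line #3, line #6 and Col-0, and each came from a pool of 20 plants. The lines are independent insertions and served as 2 replicates of the overexpression, while Col-0 had no replicate. The p-values therefore rest on the spread between the lines, taken mostly from all tested genes together (1 residual and 13.6 prior degrees of freedom). The same spread was taken for Col-0. The transgene was not analysed here, so the counts give no check of the labels through it.

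Reads in genes came to 11556077 in line #3, 10786332 in line #6 and 9968154 in Col-0. Ribosomal RNA genes took between 20.9% and 32.5% of them, with line #3 highest. Markers of the green leaf were abundant in every library, whereas 5 root and root hair markers summed to 2, 2 and 4 reads in line #3, line #6 and Col-0, and *LRX1* and *RHD6* had none. The labelled aerial tissue thus carried its markers. Where whole shoots are compared, fewer cells of a type and less RNA per cell cannot be told apart. The paper reports late flowering in the overexpression lines. Plants of equal age may therefore have differed in developmental stage and in their share of flower tissue. The part of stage in the differences described here was not tested.

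Xyloglucan is the hemicellulose that coats and tethers cellulose microfibrils in the primary wall of dicots. An XTH enzyme cuts a xyloglucan chain and either joins the new end to another chain or, in a few members, releases it with water. Expansins have no known hydrolytic activity. They loosen the contacts between cellulose and matrix polymers at acid pH, which the plasma membrane proton pumps provide, and alpha and beta expansins are the subfamilies best studied in growing organs. Several members respond to touch, auxin and brassinosteroid.

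The XTH members are recognised by 1 conserved stretch around the active site. It was read from the coding DNA of the RefSeq TAIR10.1 annotation and found in 29 of the 31 XTH members, in which no stretch was identical to another, and it was not matched in *XTH33* and *XTH11*. The 8 printed here are those of the 5 most abundant XTH genes and of *TCH4*, *XTH3* and *XTH32*, whose counts are described further on. Each covers 27 bases, 5′ to 3′, and the capitals mark the codons of the 3 acidic residues of the active site.
XTH6: gacGAGctaGATtttGAGttcttggga
XTH7: gacGAGcttGATtttGAGttcttagga
XTH4: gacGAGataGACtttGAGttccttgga
XTH24: gatGAGattGATtttGAGttcttgggt
XTH9: aacGAAttcGATtttGAGttcttaggg
TCH4: gacGAGataGATttcGAGtttttaggg
XTH3: gacGAGattGACttcGAGtttctaggg
XTH32: gatGAGgtaGACataGAAtttttgggg
The search required the 3 acidic residues, so each stretch holds them by definition. Their codons and the bases between them vary. *XTH32* belongs to the small group of XTH proteins with mainly hydrolytic activity.

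Many of these genes had no reads in the shoot. No read was found for 24 of the 68 members in any library, 6 had a few reads and 38 had at least 10 reads in at least 1 library and were tested. The genes without reads were 8 XTH genes (*XTH1*, *XTH2*, *XTH12*, *XTH13*, *XTH14*, *XTH20*, *XTH21* and *XTH26*), 10 alpha expansins (*EXPA2*, *EXPA7*, *EXPA12*, *EXPA18*, *EXPA19*, *EXPA22*, *EXPA23*, *EXPA24*, *EXPA25* and *EXPA26*), 4 beta expansins (*EXPB2*, *EXPB4*, *EXPB5* and *EXPB6*) and both pseudogenes. *EXPA7* and *EXPA18* are the expansins of root hairs, and *XTH14* and *XTH26* are likewise known from roots. With 0 reads a level of up to 0.275 CPM (reads scaled to a common library size) in line #3, 0.258 CPM in line #6 and 0.307 CPM in Col-0 remains possible, on the floor of 3 reads and for counting error only. *EXPA22* shares an identical run of 208 bases with *EXPA26*, and *EXPA23* one of 219 bases with *EXPA25*, so reads of these genes could have been discarded or split if reads matching more than 1 place were.

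The 6 genes with some reads but too few for the test were *XTH17*, *XTH18*, *XTH33*, *EXPA17*, *EXPA21* and *EXLA3*. *XTH33* had 1 read in line #3, 1 in line #6 and 5 in Col-0, and *XTH18* had 5, 3 and 8 in the same order. *EXPA17*, an expansin of lateral root formation, had 2, 6 and 3 reads. These counts are too few for the lines to be compared with Col-0.

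The expressed repertoire was dominated by a few XTH genes (see the plot of levels per kilobase). Levels were compared between genes as RPKM, that is CPM per kilobase of gene model, after TMM scaling of the libraries. Of the 68 members, 13 had at least 10 RPKM in every library: 7 XTH genes, 5 alpha expansins and 1 beta expansin. *XTH6*, *XTH7*, *XTH4* and *XTH24* together made up 68.3% of the RPKM of the 31 XTH members in line #3. Their share was similar in line #6, at 68.5%, and in Col-0, at 70.5%. *EXGT-A3* and *XTH31*, left out by the wording rule, are not in these sums. The 31 XTH members summed to 465 RPKM in line #3 and 393 RPKM in line #6, against 548 RPKM in Col-0. The 4 green leaf markers summed to 12547 CPM in line #3 and 10426 CPM in line #6, against 13510 CPM in Col-0, in the same order of libraries, and their part in the lower XTH sums was not tested. Among them *CA1*, a carbonic anhydrase of the leaf, had a log2 fold change of -0.81 (edgeR, unadjusted p = 0.017, adjusted p = 0.516). *RBCS1A* gave most of each sum. *LHCB1.1* ran in another order, with 1649 CPM in line #3 and 1436 CPM in line #6, against 1499 CPM in Col-0 (log2 fold change 0.042). Expansins and expansin-like genes summed to 210 and 191 RPKM in the lines, against 204 RPKM in Col-0.

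**Figure D1:**
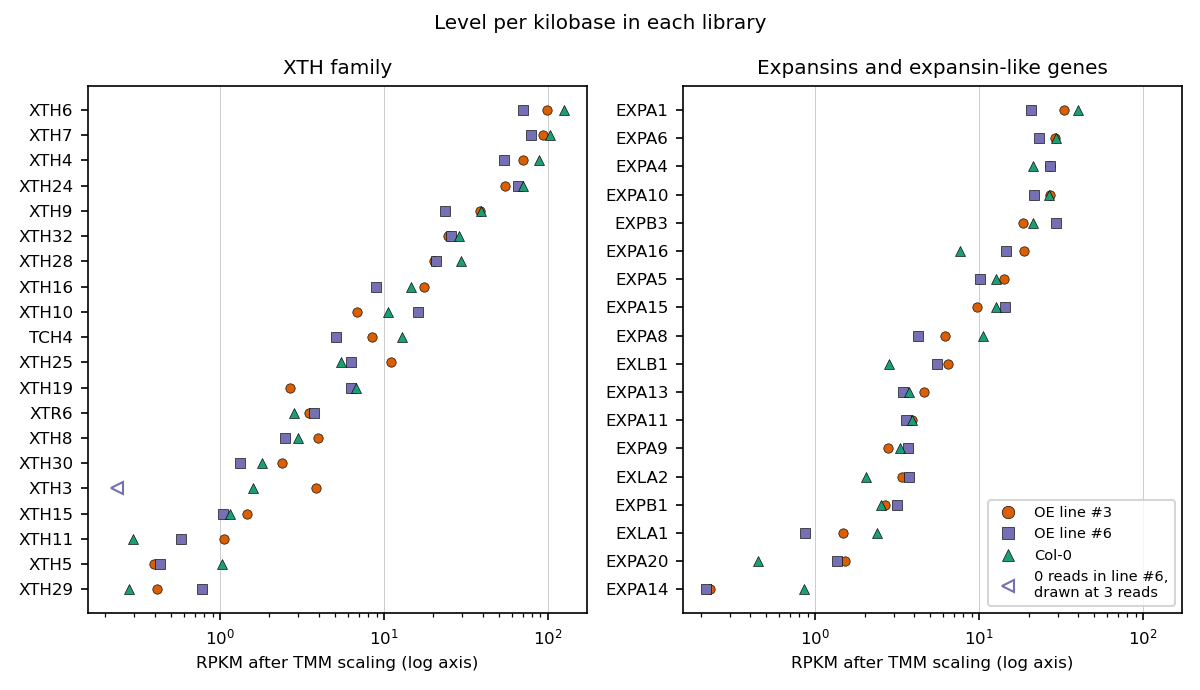
Level of each of the 38 tested genes in each library, as RPKM after TMM scaling on a log axis, with XTH genes on the left, expansins and expansin-like genes on the right, and genes ordered by their mean level. Circles are OE line #3, squares OE line #6 and triangles Col-0, and the open triangle marks *XTH3* in line #6 at the level of 3 reads because it had none. Col-0 lies to the right of both lines for the 5 most abundant XTH genes, and to their left for *EXPA16* and *EXLB1*.

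No XTH or expansin gene passed the test between the OE lines and Col-0. In edgeR's quasi-likelihood test with Benjamini-Hochberg adjustment over 18802 genes, 0 of the 38 tested members reached an adjusted p under 0.05, against 0.425% of all genes tested (0.229% higher and 0.197% lower). DESeq2 also called 0 of them. At an unadjusted p under 0.05, edgeR gave 9 of the 38, or 23.7%, against 7.38% of all genes. Of these, 3 were higher in the OE lines (*EXPA16*, *EXLB1* and *EXPA20*; 3.72% of all genes) and 6 were lower (*EXPA8*, *TCH4*, *XTH28*, *XTH6*, *XTH4* and *EXPA1*; 3.65%). *EXPA20* reached the filter of 10 reads only in the lines, with 5 reads in Col-0. DESeq2 gave 1 higher (0.872% of all genes) and 1 lower (0.819%). That split depended on the scale: with total reads in place of TMM, 5 were higher (3.36%) and 2 lower (1.92%), and this scale moved the median log2 fold change of all genes to -0.053 in line #3 and 0.14 in line #6.

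Direction alone was as follows. Both lines lay above Col-0 for 10 of the 38 members (34.9% of all genes), both lay below for 15 (34.6%), and the lines fell on opposite sides for 13 (30.5%). Among those above, *XTH11*, *XTH29* and *EXPA20* passed the read filter only through an OE line, with 3, 3 and 5 reads in Col-0. Among those below, *XTH5* and *EXPA14* passed it only through Col-0, with 14 and 10 reads there. The filter thus partly set their side, as it may for other genes in the shares. Among the 20 XTH genes 4 were above and 10 below, and among the 18 expansins and expansin-like genes 6 were above and 5 below. With total reads as the scale the XTH genes gave 5 above and 8 below and the expansins 7 and 6, while 36.7% of all genes were above and 25.2% below. The median log2 fold change of the tested members was -0.061, against 0.0058 over all genes. It was -0.17 for XTH genes and -0.042 for expansins and expansin-like genes.

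**Figure D2:**
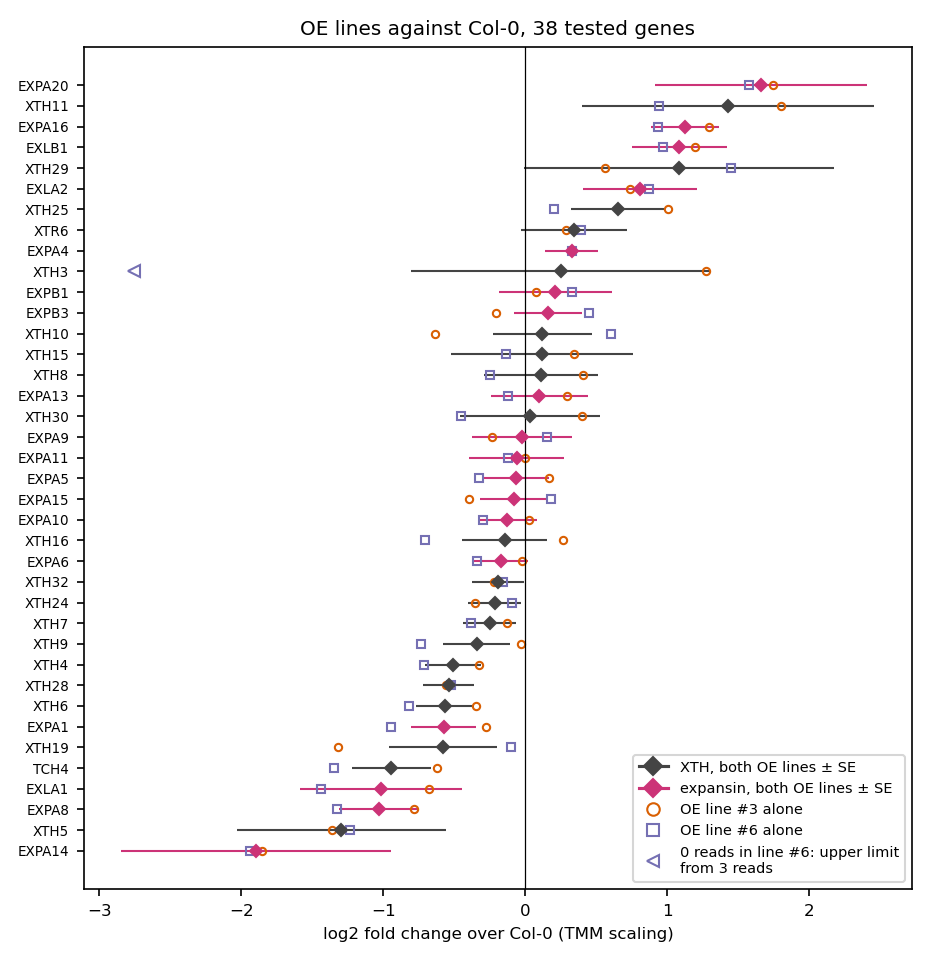
Log2 fold change of the OE lines over Col-0 for the 38 tested genes, in order of size. Filled diamonds with bars are the fit to both lines ± SE (dark for XTH, magenta for expansins and expansin-like genes). Open circles and squares are line #3 and line #6 alone. The open triangle, labelled an upper limit, is *XTH3* with 3 reads in line #6 in place of 0, at -2.75. It leaves out counting error in Col-0. Among genes with a mean of at least 50 reads, *EXPA16* and *EXLB1* lie above 1 and *EXPA8* and *TCH4* near -1. The ends of the order are genes with few reads, *EXPA20* at 1.66 and *EXPA14* at -1.90. None of the 38 passed the adjusted threshold.

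The 5 most abundant XTH genes had lower levels in both lines than in Col-0, by very little for *XTH9* in line #3, except that *XTH24* in line #6 lay slightly above Col-0 when total reads were the scale. *XTH6* had 1199 reads in line #3 and 920 in line #6, against 1366 in Col-0, or 98.5 and 70.9 RPKM against 125 RPKM. It had the highest level of all members on average, and its log2 fold change was -0.56 (SE 0.21), with an adjusted p of 0.497 from edgeR. *XTH4*, known also as *EXGT-A1*, had 934 and 761 reads in lines #3 and #6, against 1050 in Col-0, which gave 70.5 and 53.9 RPKM against 88.4 RPKM and a log2 fold change of -0.51 (adjusted p = 0.542 from edgeR).

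*XTH7* had 1164 and 1042 reads in the lines, against 1141 in Col-0 (93.9 and 78.8 RPKM against 103 RPKM), and its log2 fold change of -0.25 was close to its SE of 0.19. *XTH24*, first described as the meristem gene *MERI5*, had 723 and 925 reads in lines #3 and #6, against 828 in Col-0. This was 54.9 and 65.9 RPKM against 70.1 RPKM, and *XTH24* is the one of the 5 with the higher level in line #6. *XTH9* had 450 reads in line #3 and 295 in line #6, against 412 in Col-0 (38.4, 23.6 and 39.3 RPKM), so that line #3 was nearly level with Col-0 and line #6 lay well below. In line #3 and Col-0 the levels ran in the order *XTH6*, *XTH7*, *XTH4*, *XTH24* and *XTH9*, whereas in line #6 *XTH7* was above *XTH6* and *XTH24* above *XTH4*. The ranges of neighbors in this order overlapped over the libraries, except that *XTH9* was below the other 4 in each.

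*TCH4* (*XTH22*), the XTH gene first found by its induction by touch, had 98 reads in line #3 and 63 in line #6, against 135 in Col-0. These were 8.40 and 5.07 RPKM against 12.9 RPKM, both below Col-0. The log2 fold change was -0.94, with an SE of 0.28 (edgeR, unadjusted p = 0.0043, adjusted p = 0.295). *XTH28*, known from the elongation of stamen filaments, had 297 and 324 reads in lines #3 and #6, against 391 in Col-0. The lines were closer to each other than to Col-0 for this gene, and its log2 fold change of -0.54 had an adjusted p of 0.402 from edgeR. *XTH32*, the hydrolase-type member whose stretch is shown above, had 316 and 352 reads in the lines and 330 in Col-0, and its log2 fold change was -0.19 with an SE of 0.18.

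On the other side, *XTH25* had 128 reads in line #3 and 78 in line #6, against 57 in Col-0. Line #3 stood 2.01 times above Col-0 (95% exact counting interval 1.46 to 2.80), while line #6 was 1.15 times Col-0 with an interval, 0.807 to 1.65, that included 1. Its log2 fold change over both lines was 0.66 (SE 0.33, edgeR adjusted p = 0.728). *XTR6* (*XTH23*), another member of the family, had 41 and 47 reads in the lines and 30 in Col-0. The least abundant tested XTH genes, *XTH5*, *XTH11* and *XTH29*, had between 3 and 14 reads in any library, and their log2 fold changes of -1.30, 1.43 and 1.08 rest on these few reads.

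Among the alpha expansins, *EXPA16* came nearest to the threshold. It had 225 reads in line #3 and 187 in line #6, against 82 in Col-0, or 18.7 and 14.5 RPKM against 7.59 RPKM. Line #3 was 2.46 times Col-0 (counting interval 1.90 to 3.21) and line #6 was 1.92 times (1.47 to 2.52), so both lines were above Col-0 beyond counting error. Its log2 fold change was 1.13 (SE 0.24, unadjusted p = 3.2e-04, edgeR adjusted p = 0.0678). The call turned with the processing: with total reads as the scale its adjusted p was 0.0463, and with ribosomal RNA and organelle genes left out it was 0.0285, whereas DESeq2 gave one near 1. Its longest run of bases identical to another member, *EXPA4*, was 29.

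*EXPA8* was next, on the lower side. It had 74 reads in line #3 and 54 in line #6, against 114 in Col-0 (6.13 and 4.20 RPKM against 10.5 RPKM), and both lines lay below. Its log2 fold change was -1.03 (SE 0.28, unadjusted p = 0.0021, edgeR adjusted p = 0.218).

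The other abundant alpha expansins differed less. *EXPA1*, which is known in leaf growth and in stomatal opening, had 477 and 320 reads in lines #3 and #6, against 518 in Col-0. This corresponded to 33.0 and 20.8 RPKM against 40.1 RPKM, and its log2 fold change was -0.57 with an SE of 0.23 (adjusted p = 0.564 by edgeR). *EXPA4* had 392 and 418 reads in the lines, against 280 in Col-0, and its 26.8 RPKM in each line lay 1.25 times above the 21.4 RPKM of Col-0 (log2 fold change 0.33, adjusted p = 0.786 by edgeR). It was the only one of the 10 most abundant members with both lines above Col-0 (34.9% of all genes). In contrast, 8 of the 10 had both lines below (34.6% of all genes). With total reads as the scale there were again 8 below (25.2% of all genes), of which 7 were the same genes: *XTH24* left the count and *EXPA10* entered it. Both lines were compared with the same Col-0 library, so their directions are not independent of each other.

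*EXPA6* had 435 and 373 reads in the lines and 396 in Col-0, with a log2 fold change of -0.17. *EXPA10*, an expansin of leaf and petiole growth, had 237 and 201 reads in lines #3 and #6 and 208 in Col-0, and its log2 fold change of -0.13 was smaller than its SE of 0.21. *EXPA5*, known from growth promoted by brassinosteroid, had 199 and 151 reads in the lines and 159 in Col-0, again on both sides of Col-0 after scaling. The rarest alpha expansins moved most on the log scale: *EXPA20* had 19 and 18 reads in the lines and 5 in Col-0 (log2 fold change 1.66, unadjusted p = 0.040, edgeR adjusted p = 0.636), and *EXPA14* had 3 and 3 reads in the lines and 10 in Col-0. A gene on the other strand overlaps *EXPA20*, and the reads do not carry strand, so part of its reads could belong to that neighbor.

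The beta expansins were represented by *EXPB1* and *EXPB3* alone. *EXPB3* had 268 reads in line #3 and 451 in line #6, against 277 in Col-0, or 18.5 and 29.2 RPKM against 21.3 RPKM. The lines thus fell on opposite sides of Col-0, and line #6 was 1.58 times line #3 (counting interval 1.35 to 1.84). *EXPB1* had 33 and 42 reads in the lines and 28 in Col-0.

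The expansin-like genes encode proteins related to expansins whose wall-loosening activity is not established. *EXLB1* had 77 reads in line #3 and 70 in line #6, against 30 in Col-0 (6.45 and 5.50 RPKM against 2.81 RPKM). Both lines lay above Col-0, 2.30 times for line #3 (counting interval 1.49 to 3.63) and 1.96 times for line #6 (1.26 to 3.12). The log2 fold change was 1.09 (SE 0.33, unadjusted p = 0.0054, edgeR adjusted p = 0.321). *EXLA2* had 41 and 48 reads in the lines and 22 in Col-0, while *EXLA1* had 16 and 10 in the lines and 23 in Col-0. *EXLA1* shares an identical run of 57 bases with *EXLA3* and overlaps a gene on the other strand, so its count is uncertain.

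**Figure D3:**
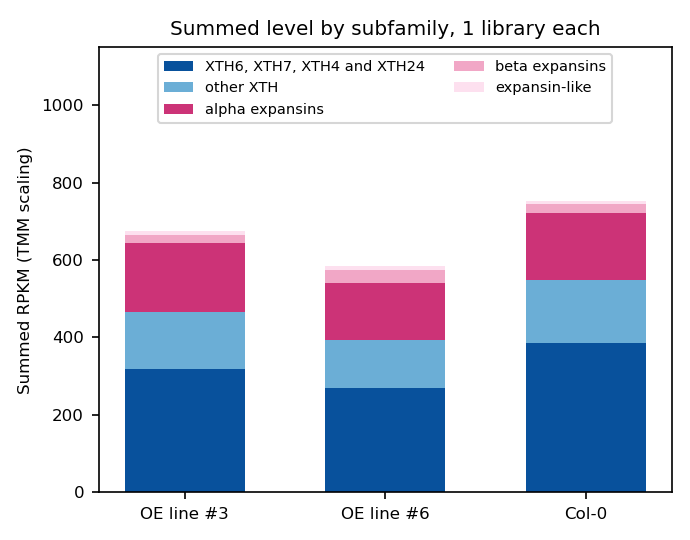
Summed RPKM after TMM scaling of the subfamilies in each library, 1 library a bar, stacked from the 4 most abundant XTH genes at the bottom to the expansin-like genes at the top. The total is 676 in line #3, 584 in line #6 and 753 in Col-0, and most of the gap lies in the XTH genes.

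The lower XTH total came mostly from the abundant genes, since *XTH6*, *XTH7*, *XTH4* and *XTH24* summed to 318 RPKM in line #3 and 269 RPKM in line #6, against 387 RPKM in Col-0. On the scale of total reads, XTH genes took 507 CPM in line #3 and 494 CPM in line #6, against 624 CPM in Col-0, so both lines stayed below Col-0. Expansins and expansin-like genes took 241 and 253 CPM in the lines, against 246 CPM in Col-0, on opposite sides. These sums were not tested.

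The lines differed from each other for some members. Relative to Col-0, line #3 had 6 tested members more than 2-fold higher (3.67% of all genes) and 3 at less than 0.5 of Col-0 (2.18%), and line #6 had 2 (2.1%) and 6 (2.34%). These counts include *XTH11*, *EXPA20* and *XTH29*, which reached 10 reads only in an OE line, and *XTH5* and *EXPA14*, which reached it only in Col-0. The read filter thus partly set their direction, and the shares of all genes rest on the same filter. With total reads as the scale, line #3 had 5 (3.28%) and 3 (2.53%). Line #6 had 6 (3.08%) and 6 (1.85%), so its count above 2-fold depended on the scale. There *EXPA16*, *EXLB1*, *EXLA2* and *XTH11* passed 2-fold in line #6 at 2.02 to 2.16 times Col-0, against 1.83 to 1.96 with TMM scaling. The 2 that passed it with TMM scaling as well, *XTH29* and *EXPA20*, had 3 and 5 reads in Col-0. Between the lines, *XTH10* and *XTH19* were more than 2-fold higher in line #6 than in line #3 (1.32% of all genes) and *XTH3* was more than 2-fold lower (2.78%). *XTH10* had 92 reads in line #3 and 232 in line #6, with 128 in Col-0 between them. Line #6 was 2.37 times line #3 (counting interval 1.85 to 3.05), and the log2 fold change over both lines was 0.12 (SE 0.35).

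*XTH19*, known from roots, had 33 reads in line #3 and 82 in line #6, against 74 in Col-0. Line #3 was the library apart here, at 0.400 times Col-0 (counting interval 0.257 to 0.610), and line #6 was 2.33 times line #3 (1.54 to 3.61). *XTH19* shares a run of 68 identical bases with *XTH18* and one of 51 with *XTH17*, so its reads could have been split with these neighbors in the family.

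*XTH3*, reported to join cellulose as well as xyloglucan chains in vitro, had 46 reads in line #3 and 0 in line #6, against 17 in Col-0. Line #3 was 2.42 times Col-0 (counting interval 1.36 to 4.51). Line #6 was at least 6.74-fold lower than Col-0 and at least 16.3-fold lower than line #3, on a floor of 3 reads in line #6. The genotypes as such were not separated, since Col-0 fell between the lines (edgeR adjusted p = 0.990 over both lines).

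Markers of the anther and pollen coat moved with *XTH3* between the libraries. The 7 markers summed to 94.6 CPM in line #3 and 2.32 CPM in line #6, against 27.5 CPM in Col-0. *GRP17*, the pollen coat oleosin, had 506 reads in line #3 and 1 in line #6, against 56 in Col-0, and *ATA27* had 176 and 0 against 73. *EXL4*, a pollen coat lipase and not an expansin, had 99 and 0 reads in the lines, against 33 in Col-0. *A9* and *MS2* had another pattern, highest in Col-0, with 5 and 1 reads of *A9* in lines #3 and #6, against 21 in Col-0. None of the 7 was called by edgeR (0.425% of all genes), and 2 had an unadjusted p under 0.05 (7.38% of all genes). These were *A9* (log2 fold change -2.95, unadjusted p = 0.0028, adjusted p = 0.248) and *MS2* (-2.31, unadjusted p = 0.0044, adjusted p = 0.297). Both passed the read filter only through Col-0. The part of flower tissue in the *XTH3* counts was not tested.

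**Figure D4:**
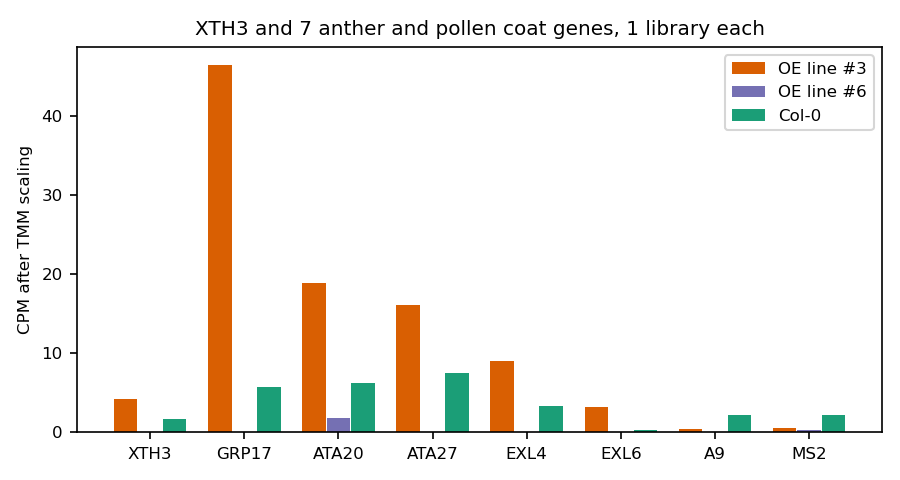
CPM after TMM scaling of *XTH3* and of 7 anther and pollen coat markers in OE line #3, OE line #6 and Col-0, 1 library a bar. *XTH3*, *GRP17*, *ATA20*, *ATA27*, *EXL4* and *EXL6* are highest in line #3 and lowest in line #6, and *A9* and *MS2* are highest in Col-0.

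Genes that act beside the XTH enzymes and expansins were counted from lists written from textbook knowledge. Beside these counts, edgeR called 0.425% of all genes tested. None of the 15 genes of xyloglucan synthesis was called by edgeR, and their median log2 fold change was -0.0057, against 0.0058 over all genes. The smallest p among them was that of *XXT4*, a xyloglucan xylosyltransferase, with 45 and 34 reads in lines #3 and #6, against 13 in Col-0, which gave a log2 fold change of 1.39 (unadjusted p = 0.012, adjusted p = 0.450). None of the 4 enzymes that trim xyloglucan in the wall was called either, with a median of 0.079. The smallest p there belonged to *BGAL10*, a wall beta-galactosidase, with 69 and 63 reads in the lines and 49 in Col-0 (adjusted p = 0.949 from edgeR).

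Of the 11 plasma membrane proton pumps 10 were tested and none was called by edgeR. *AHA3*, the pump of phloem companion cells, had 1447 and 1391 reads in lines #3 and #6, against 887 in Col-0, which gave a log2 fold change of 0.47 (unadjusted p = 0.024, adjusted p = 0.564). *AHA1*, the most abundant pump, had 8961 and 12525 reads in the lines and 9814 in Col-0. The list's median of 0.26 includes *AHA6*, a pollen pump named here after its values were seen, which had 16 reads in line #3, 0 in line #6 and 1 in Col-0.

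None of the 11 tested genes of brassinosteroid synthesis and signaling was called by edgeR, with a median of -0.13. The smallest p was that of *CPD*, a P450 enzyme of brassinosteroid synthesis, with 923 and 1079 reads in the lines, against 1073 in Col-0, which gave a log2 fold change of -0.31 (adjusted p = 0.799). Of the other touch genes, *TCH1*, *TCH2* and *TCH3*, none was called by edgeR. *TCH2*, a calmodulin-like protein gene, had 146 and 179 reads in lines #3 and #6 and 177 in Col-0 (log2 fold change -0.33, adjusted p = 0.817), and *TCH3* lay on the same side at -0.24.

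Heat stress transcription factors bind heat shock elements, which are inverted repeats of nGAAn. The promoter windows of the members were searched for them in the RefSeq TAIR10.1 genome, from 250 bases before to 50 bases after each gene start, and both strands were covered because the motifs are palindromes. GAANNTTC was found for 7 of the 68 members (10.3%), against 11.3% of 32834 genes. The longer form that also has an A before and a T after these letters, and so always holds GAANNTTC, was found for 1 member (1.47%), against 1.32% of all genes. The members' shares were thus close to those of all genes. The 3 tested members with a match are shown with the GAANNTTC letters in capitals, 5′ to 3′.
EXPA14: tttgcaGAAATTTCttctat
EXPA15: gtaaatGAACATTCtataaa
EXPB3: ctgcggGAAATTTCaacggt
The match of *EXPA14* is also the one for the longer form, and this gene had 3 and 3 reads in the lines, against 10 in Col-0. *EXPA15* had 143 and 228 reads in lines #3 and #6 and 169 in Col-0, and *EXPB3* is described above, so the lines lay on opposite sides of Col-0 for both. *EXPA16*, *EXLB1*, *EXPA8* and *TCH4* had no match in these windows. They were picked after their values were seen, and only 11.5% of all genes tested had a GAANNTTC match. Binding at these genes was not tested.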

How the data were processed

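RNA-seq libraries from pooled aerial parts of OE line #3, OE line #6 and Col-0 were sequenced from double-stranded cDNA, without a step that marks the strand. Mapping to TAIR10 was done by the authors, who deposited an unnormalized count of reads per gene for each library. The submitters' notes name CASAVA 1.7, and how reads with several matches were treated is not given in the sources used here. Cells marked NA were read as 0, since for 1076 genes the same library had NA in one place and 0 in another. The deposited RPKM values, ratios, Q-values and category lists were not used, because the last 3 hold the authors' own comparisons and the RPKM columns hold error cells.

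The comparison of both lines to Col-0 used edgeR 4.0.16 (R 4.3.3) with TMM scaling, glmQLFit and glmQLFTest and a prior count of 0.125. A gene needed 10 or more reads in any library, which 18802 genes had, and p-values were adjusted over these after Benjamini and Hochberg, with a threshold of 0.05. The TMM factors were 0.945, 1.08 and 0.981 for line #3, line #6 and Col-0. The fit had 1 residual and 13.6 prior degrees of freedom with a biological coefficient of variation of 0.127. edgeR reports no SE, so SEs were derived by dividing the size of the log2 fold change (no prior count) by the root of F. RPKM and CPM were computed from the reads after TMM scaling. Ratios between libraries have 95% exact (Clopper-Pearson) intervals, which cover counting error only, and a count of 0 was given a floor of 3 reads. Sequences were taken from RefSeq TAIR10.1, in which all 68 members had an entry, and coordinates are left out since the authors used another release. The test was tried on simulated data. Python 3.11.15, pandas 2.3.3, SciPy 1.17.1 and matplotlib 3.10.9 were used for the rest.

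The members, lists and tests were chosen with earlier results of these data known. Genes were named if they passed the threshold or lay next to it, had one of the 5 highest or 5 lowest log2 fold changes among members with a mean of at least 50 reads, were among the 5 most abundant XTH genes or expansins, differed over 2-fold between the lines beyond counting error, or had 0 reads in a line and at least 10 in Col-0 or the reverse. From each other list, the gene with the smallest p was named. Other genes named with values were chosen after their values were seen. Alternatives covered the scale, the read filter, DESeq2 1.42.0, the robust fit, a prior count of 2 and each line alone.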

Additional observations from a re-analysis of the deposited data

How the results depend on the processing

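The count of members called higher was 1 in place of 0, that being *EXPA16*, with total reads as the scale and without ribosomal RNA and organelle genes, and it was 0 in the other 4 alternatives. These settings called 0.548% and 0.558% of all genes. The adjusted p of *EXPA16* ranged from 0.0285 to near 1 over these alternatives. The count called lower was 0 in all 6. The median log2 fold change of the tested members lay between -0.068 and -0.020 with both lines, and it was -0.15 for line #6 and -0.012 for line #3 alone. Setting *XTH3* in line #6 to 3 reads, an alternative chosen after seeing the data, left -0.15. Of 125 tested alternative values of the 18 genes named by the rule, 123 kept their direction and side of the threshold and 2 passed it. Part of this was fixed in advance: a prior count of 2 leaves the p-values unchanged, and the robust fit leaves the log2 fold changes unchanged. The 36 values of 1 line alone have no test, and 32 kept their direction. The sign changed in the other 4: *EXPA10* (0.03), *XTH10* (-0.63) and *EXPB3* (-0.21) in line #3 and *XTH3* (-7.24, fitted to 0 reads and no bound) in line #6. Over all genes, 80 were called, against 103 with total reads, 104 without ribosomal RNA and organelle genes, 63 with the robust fit, 42 with at least 10 reads in every library, 41 with at least 1 read in 1 library and 44 by DESeq2; the cause was not tested. The lone Col-0 pool limits the precision. No paired analysis was possible because there was 1 Col-0 pool and the labels pair it with neither line.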
